A study of Equus caballus with 14 samples.

Results

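The 2 pregnant glands biopsied on both day 11 and day 13 after ovulation are described here, with 2 further pregnant glands biopsied on day 11 alone. Members were taken from the labels: the mares Emma and Cornelia each gave a pregnant library on both days, and Kate and Gisela each gave a pregnant library on day 11. These are 6 of the 14 poly(A) RNA-seq libraries of the series, and they come from 4 corpora lutea of 4 light breed mares. The other 8 libraries are labelled non-pregnant, and no group received a drug or hormone according to the labels. Biopsy dates place both of Emma's samples and those of Kate and Gisela in month 6, and both of Cornelia's in month 8, so month and gland cannot be told apart. Each day 13 sample was taken from a gland already biopsied on day 11, so that day and an earlier biopsy cannot be told apart either. The gland of Kate that is labelled pregnant at day 11 is labelled non-pregnant at day 13, which makes its day 11 status uncertain. The sources used here give no age and no method of pregnancy diagnosis.

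The corpus luteum is the temporary endocrine gland built from the wall of the ovulated follicle, and its steroidogenic cells, capillary endothelium, pericytes, fibroblasts and immune cells are all sampled in a bulk biopsy. Its progesterone keeps the uterus receptive. In the cycling mare, prostaglandin released by the uterus ends the life of the gland about a fortnight after ovulation, while a mobile conceptus that travels through the uterine horns holds that release down and the gland persists. Days 11 and 13 lie at this turning point, so a comparison of the days within a pregnant gland follows a corpus luteum at the time when it is being rescued. The stated purpose of the series was to find genes of stable expression across pregnancy status and day. In bulk tissue a change in the number of cells of a type and a change in RNA per cell cannot be told apart.

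The 6 pregnant libraries held between 25089204 and 32186736 counts. Genes carry Ensembl identifiers, none of which could be matched to a symbol. Lists of luteal, steroidogenic, inflammatory and cell type genes could therefore not be read, the tissue could not be checked against its markers, and genes are described by their abundance and by 4 identifiers. Levels are given as CPM, a count relative to library size, after TMM scaling, and changes are on the log2 scale. Of 30371 genes, 15437 were tested. Genes at 1 CPM or more numbered 12807 in Emma at day 11 and 12904 at day 13, while Cornelia went from 12605, the lowest of all 14 libraries, to 13048. The share of counts held by the 10 most abundant genes was 16.7% and 16.8% in Emma on the 2 days and 15.5% and 13.5% in Cornelia. Gisela had the most genes at 1 CPM or more, 13180.

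Within the 2 paired glands, 15 genes rose from day 11 to day 13 and 0 fell. The test was edgeR's quasi-likelihood F test with each corpus luteum as a block and an adjusted p of 0.05 (Benjamini-Hochberg), and the 15 were 0.0972% of the genes tested. At day 11 most of these genes were at very low levels in both glands, with a median of 0.0370 CPM and a highest value of 4.59 CPM in Emma, and a median of 0.0629 CPM and a highest value of 6.48 CPM in Cornelia. Of the 15, 6 had no count in Emma and 4 none in Cornelia. At day 13 their medians were 6.19 CPM in Emma and 8.86 CPM in Cornelia. Their lowest day 13 value was 3.21 CPM in Emma and 3.69 CPM in Cornelia. On the log2 CPM scale with a prior count of 2 the change ran from 3.09 to 8.18 with a median of 5.66 in Emma, and from 2.45 to 8.38 with a median of 5.95 in Cornelia. Over all genes tested the median change was 0.00 in Emma and -0.02 in Cornelia.

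Most of these genes were rare transcripts: 2 of the 15 had a mean of at least 10 CPM over the 14 libraries, 12 lay between 1 and 10 CPM and 1 lay under 1 CPM. The number called depended on 4 glands. Without either library of Emma's pregnant gland, of Cornelia's gland, or of Emma's second, non-pregnant gland, edgeR called 0 genes in the paired fit, with 557 to 1205 genes at an unadjusted p under 0.05, and without either library of Kate's second gland, also non-pregnant, it called 27 or 25. The non-pregnant glands enter because the spread is estimated from all glands sampled on both days under the same label. The pregnant libraries alone gave 14 calls, all upward, and 11 of those were among the 15. DESeq2 with the same design called 66 genes higher and 2 lower, with all 15 among the higher, and limma with voom called 2 of the 15. The 2 lower in DESeq2 were ENSECAG00000041041 and ENSECAG00000024267.

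**Figure D1:**
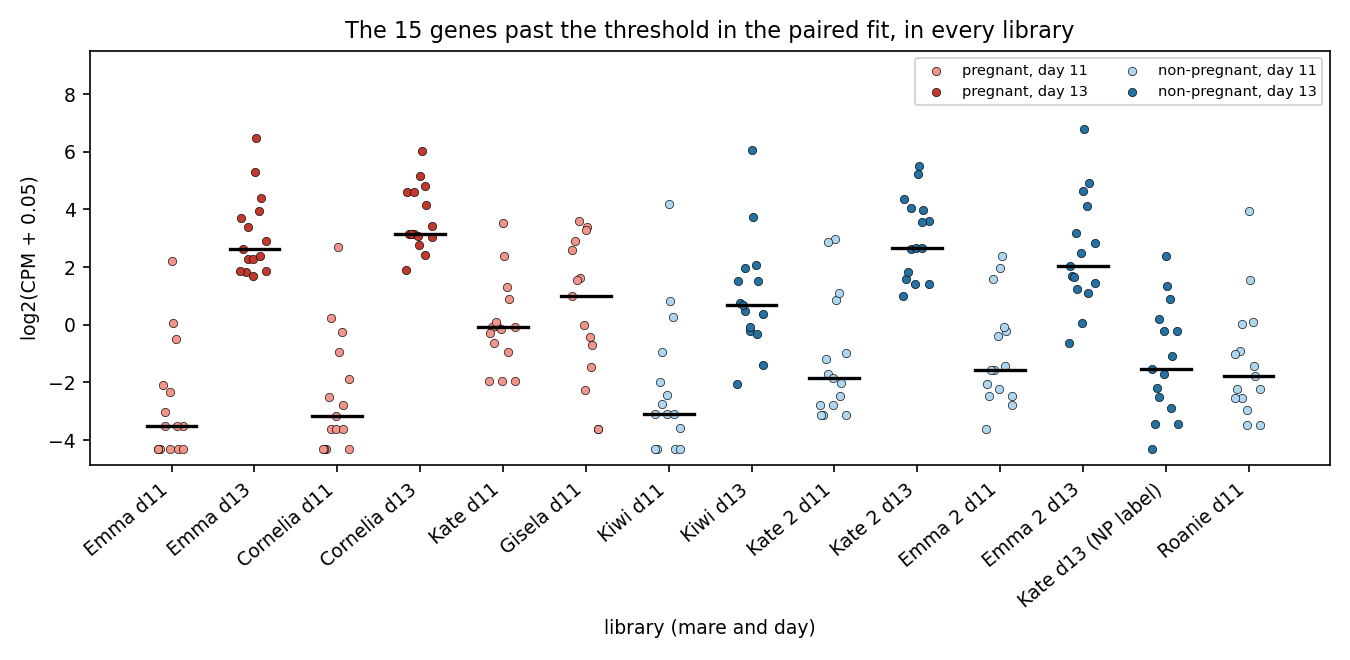
Levels of the 15 genes that passed the threshold in the paired fit, as log2(CPM + 0.05) on the vertical axis, in each of the 14 libraries along the horizontal axis, with 1 point a gene and a bar at the median. The genes were chosen for the step from day 11 to day 13 in Emma and Cornelia, and the medians of Kate (0.888 CPM) and Gisela (1.93 CPM) at day 11 lie between those 2 days.

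ENSECAG00000017274 had the smallest p of all genes tested. Its level in pregnant glands at day 11 was 0.999 CPM in Emma, 0.472 CPM in Cornelia, 5.20 CPM in Kate and 10.4 CPM in Gisela. At day 13 it stood at 89.2 CPM in Emma and 64.6 CPM in Cornelia. Both pregnant day 13 libraries were above all 4 pregnant day 11 libraries, and the 2 paired glands were the lowest of that day 11 group. It also rose in the 3 non-pregnant glands sampled on both days, from 1.70 to 13.4 CPM in Kiwi. In Kate's second gland it went from 1.75 to 45.4 CPM. In Emma's second gland it went from 5.23 to 111 CPM, above both pregnant day 13 levels. In Kate's first gland it was lower at day 13, at 2.46 CPM. The gene went from 27 to 2752 counts in Emma, an 89.3-fold rise with a 95% interval of 61.2 to 136 for counting error only, and from 15 to 1963 counts in Cornelia, a 137-fold rise with an interval of 82.8 to 245. The paired fit in edgeR put the log2 fold change at 6.74 ± 0.44 (SE), adjusted p 0.0100. Against all 4 day 11 libraries the unpaired estimate in edgeR was 4.17 ± 1.11 (SE), adjusted p 1. Alternatives to the paired fit, that unpaired estimate among them, gave log2 fold changes from 4.17 to 7.10 and adjusted p from 4.86e-53 to 1.

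ENSECAG00000039058 had the second smallest p. No read was counted for it in Emma at day 11, and its level was 0.0944 CPM in Cornelia, 0.570 CPM in Gisela and 1.82 CPM in Kate. At day 13 it reached 21.0 CPM in Emma and 17.9 CPM in Cornelia. The pregnant groups of the 2 days did not overlap, and the 2 day 13 values differed by less than the day 11 values did on a log scale. The non-pregnant glands sampled on both days rose as well, from 0 to 2.80 CPM in Kiwi and from 0.194 to 15.6 CPM in Kate's second gland. Emma's second gland went from 0.807 to 29.8 CPM, above both pregnant day 13 levels. Kate's first gland was lower at day 13, at 0.424 CPM. From 0 to 649 counts, the ratio in Emma's pregnant gland was 190 with the day 11 library set to a floor of 3 counts. The lower 95% counting limit of the ratio was 154. From 3 to 545 counts the ratio in Cornelia was 190 with a counting interval of 64.7 to 924. The paired fit gave a log2 fold change of 8.46 ± 0.66 (SE) and an adjusted p of 0.0172 in edgeR, a fold that depends on the prior count because a library is at 0. The alternatives gave it log2 fold changes from 5.03, without the block, to 12.2, without either library of Cornelia, and adjusted p from 6.66e-07 to 0.954.

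Among genes lower at day 13 the smallest adjusted p in the paired edgeR fit was 0.223, for ENSECAG00000041041. It was at 90.0 CPM in Emma, 67.2 CPM in Cornelia, 84.7 CPM in Kate and 36.6 CPM in Gisela at day 11. At day 13 it was at 49.4 CPM in Emma and 39.8 CPM in Cornelia. Both paired glands were lower at day 13, to a ratio of 0.549 in Emma and 0.591 in Cornelia, but Gisela's day 11 level lay below both day 13 levels, so the groups overlapped. The paired log2 fold change was -0.81 ± 0.15 (SE), with a 95% interval from -1.17 to -0.45 before adjustment. DESeq2 gave -0.81 with an adjusted p of 0.00839, the lowest over the alternatives, which otherwise did not pass the threshold and reached an adjusted p of 1.

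In the non-pregnant glands the same gene was higher at day 13 in 3 of 3: it went from 87.1 to 107 CPM in Kiwi, from 70.1 to 75.9 CPM in Kate's second gland and from 50.3 to 81.3 CPM in Emma's second gland. ENSECAG00000041041 thus moved in opposite directions in the pregnant and the non-pregnant gland of the same mare, Emma. In Kate's first gland, whose label changed, it went from 84.7 to 79.9 CPM. The difference between the day effects, pregnant minus non-pregnant, was -1.18 ± 0.20 (SE) on the log2 scale. Its unadjusted p was 0.000429 and its adjusted p was 1 in edgeR. The gene was chosen for its fall in the pregnant glands, which favours a difference in this direction. DESeq2 gave -1.17 with an adjusted p of 0.0203, the lowest over the alternatives, whose highest was 1.

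ENSECAG00000024267 came next among genes with a lower level at day 13. Its day 11 level was 88.4 CPM in Emma, 169 CPM in Cornelia, 116 CPM in Kate and 159 CPM in Gisela. Its day 13 level was 48.0 CPM in Emma and 102 CPM in Cornelia. The ratio of the days was near equal in the 2 glands, 0.543 and 0.604, although Cornelia's day 13 level was above Emma's day 11 level. The paired log2 fold change was -0.80 ± 0.16 (SE) and the unpaired one -0.83 ± 0.33 (SE), so that the estimates were close and the paired error was smaller. Neither passed, with adjusted p of 0.296 and 1 in edgeR, and DESeq2 with the paired design gave an adjusted p of 0.00839. In the non-pregnant glands the log2 change was -0.10 in Kiwi, 0.26 in Kate's second gland and -0.38 in Emma's second gland. It was 0.16 in Kate's first gland, whose label changed. The difference of the day effects, pregnant minus non-pregnant, was -0.73 ± 0.21 (SE) on the log2 scale.

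**Figure D2:**
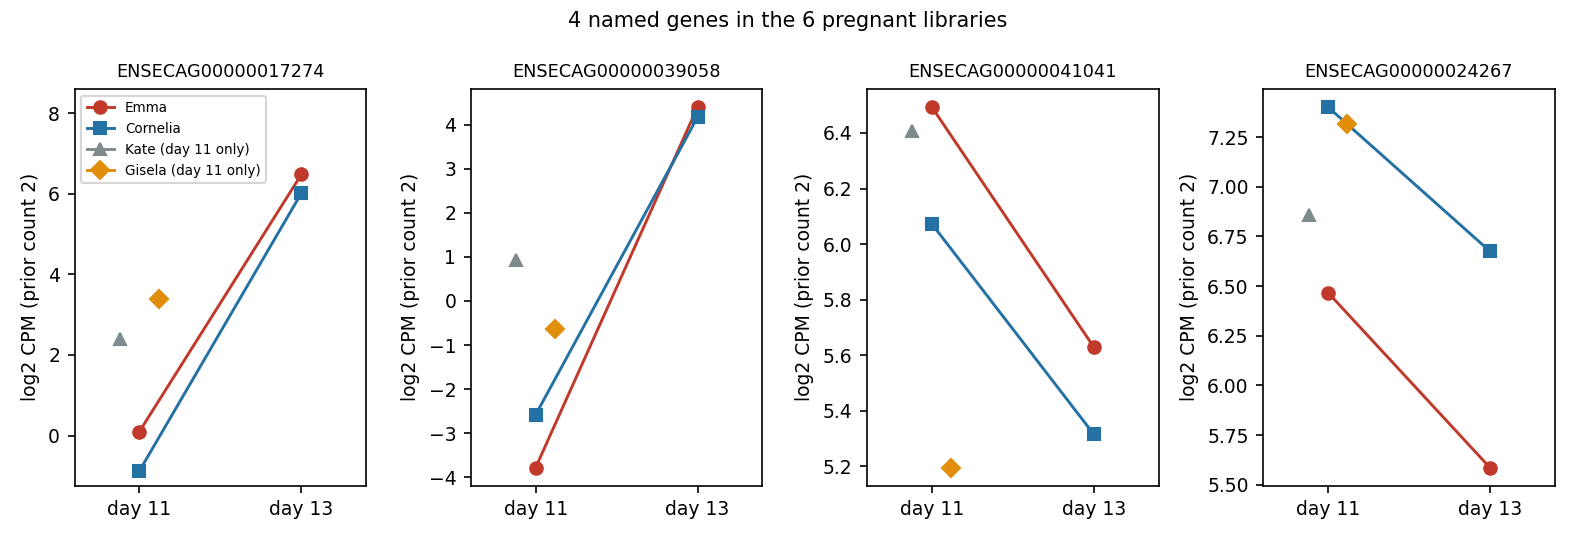
Log2 CPM (prior count 2, vertical axes, each panel with its own range) of 4 genes in the 6 pregnant libraries at day 11 and day 13, with a line joining the 2 libraries of a gland. ENSECAG00000017274 and ENSECAG00000039058 were higher at day 13 than in all 4 day 11 libraries, while for ENSECAG00000041041 and ENSECAG00000024267 the levels of the 2 days overlapped across the 4 glands.

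The comparison of the 2 day 13 libraries with all 4 pregnant day 11 libraries, without a block, called 0 genes in edgeR, or 0% of those tested. The unadjusted p was under 0.05 for 345 genes, 2.23% of those tested, of which 242 (1.57%) were higher and 103 (0.667%) lower at day 13. DESeq2 called 11 genes, all higher, limma with voom called 0, and limma with the corpus luteum as a random block called 1. All 15 genes of the paired fit were also higher in the unpaired fit, with log2 fold changes from 1.84 to 6.62, and 12 of them had an unadjusted p under 0.05. Their adjusted p ran from 0.240 to 1 in edgeR. Both day 13 libraries lay above all 4 day 11 libraries for 647 genes, 4.19% of those tested, and below them for 555 genes, 3.6%. For the 15 genes that number was 13, which their choice for low day 11 levels in 2 of the 4 libraries partly fixes.

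Kate and Gisela had no weight in the choice of the 15 genes. Gisela's day 11 level was above that of both paired glands at day 11 for 13 of the 15, against 34.4% of all genes, and at or above the lower of the 2 day 13 levels for 2 of them. Kate's day 11 level was above both for 14 of the 15, against 35.1% of all genes, and reached the lower day 13 level for 0. The genes were chosen for low values in Emma and Cornelia at day 11, so that a higher level elsewhere is in part set by the choice. In Kate's gland, sampled again on day 13 under a non-pregnant label, 13 of the 15 genes were lower at day 13, with a median log2 change of -1.30, where 51.3% of all genes were lower. Gisela's library had the most genes at 1 CPM or more, and whether that breadth has a part in its levels of the 15 genes was not tested.

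The 15 genes were also higher at day 13 in each of the 3 glands with a non-pregnant label at day 11 and day 13, all by at least 2-fold. Of all genes tested, 4.97% rose by that much in Kiwi, 5.34% in Kate's second gland and 3.04% in Emma's second gland. The spread used to choose the 15 includes these 3 glands, which favours genes whose changes are alike in them. The median log2 change of the 15 was 2.65 in Kiwi, 4.28 in Kate's second gland and 3.14 in Emma's second gland, against 5.66 and 5.95 in the pregnant glands. At day 13 the median level was 1.56 CPM in Kiwi, 6.29 CPM in Kate's second gland and 4.08 CPM in Emma's second gland. The 2 pregnant day 13 libraries were above all 4 non-pregnant day 13 libraries for 3 of the 15 genes, against 4.31% of all genes tested, so that for most of the 15 the levels overlapped. The fitted day effect was larger in pregnant than in non-pregnant glands for all 15, which selection on the pregnant effect favours, and 13 had an unadjusted p under 0.05 for that difference. None passed the adjusted threshold, the smallest adjusted p among them being 1 in edgeR. Over all genes tested, the difference of the day effects called 0 genes in edgeR, or 0%, with 244 at an unadjusted p under 0.05, 1.58%, and DESeq2 called 2. The day effect in non-pregnant glands, from the same paired edgeR fit, passed the adjusted threshold for 4 of the 15437 genes tested, all among the 15. All 15 had an unadjusted p under 0.05 for it. The rise of the 15 genes is therefore not shown to be particular to pregnant glands.

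Beyond the genes called, the balance of directions in the paired fit differed with abundance. In the paired edgeR fit 638 genes had an unadjusted p under 0.05, 4.13% of those tested, of which 482 (3.12%) were higher and 156 (1.01%) lower at day 13. Among the 2437 genes with a mean under 1 CPM the split was 228 higher and 8 lower, and among the 4474 genes from 1 to 10 CPM it was 180 higher and 39 lower. Among the 8526 genes of at least 10 CPM it was 74 higher and 109 lower. In these 3 classes 9.68%, 4.89% and 2.15% of the genes had such a p. With no change in any gene a share of about 0.05 would be expected. The shares over all genes, from 1 to 10 CPM and at 10 CPM or more were below that. The unpaired fit gave 49 higher and 53 lower among genes of at least 10 CPM. The median log2 fold change of the higher genes in these classes was 4.05, 1.44 and 0.58, and that of the lower genes was -2.15, -0.70 and -0.40. Beyond the 15 genes none passed the adjusted threshold, so these counts describe the fit. A gene was tested where at least 2 libraries reached the minimum count, so a rare transcript could enter with the help of the pregnant day 13 libraries. Without those libraries 156 of the genes tested would not have reached that minimum, among them 58 of the 228 and 0 of the 15.

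The precision followed the same order. The median half-width of the 95% interval of the paired log2 fold change was 1.73 for genes under 1 CPM, 0.75 for genes from 1 to 10 CPM and 0.35 for genes of at least 10 CPM. For 95.3% of the abundant genes the interval lay within a 2-fold change in either direction, and for 76.5% within 1.5-fold, each interval taken singly. For genes under 1 CPM 0.288% had an interval within 2-fold. Changes of 2-fold in rare transcripts were thus mostly not detectable in this fit. For most abundant genes a 2-fold change common to the 2 pregnant glands lay outside the interval. The spread behind these intervals is shared with the non-pregnant glands sampled on both days and with other genes. The intervals therefore assume that pregnant glands vary like the others.

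**Figure D3:**
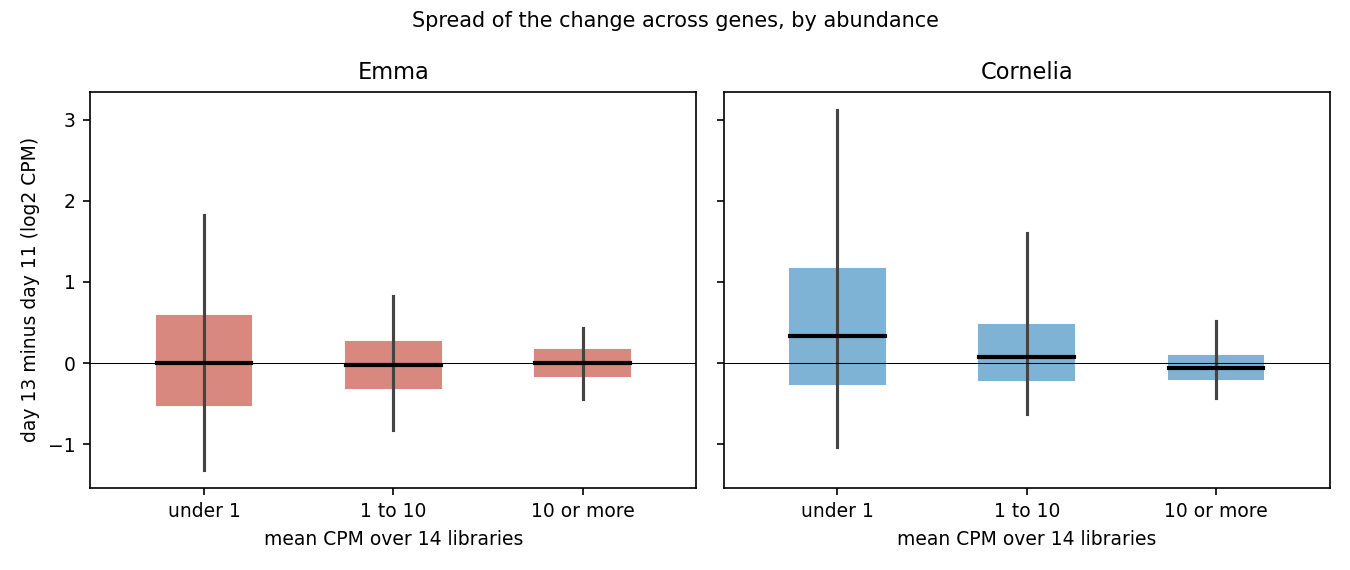
Day 13 minus day 11 in log2 CPM (vertical axis) in the glands of Emma and Cornelia for genes in 3 classes of mean CPM over the 14 libraries (horizontal axis); lines span the 5th to 95th percentile of genes, boxes the quartiles, and bars mark the median. In Cornelia the 95th percentile reached 3.12 for genes under 1 CPM against 1.83 in Emma, and the median moved from 0.34 in the rarest to -0.06 in the most abundant class.

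Large rises seen in both glands were mostly in rare transcripts. Changes of at least 2-fold upward were seen in 516 genes in Emma and 1373 in Cornelia, and downward in 397 and 168. Both glands were at least 2-fold higher for 272 genes, 1.76% of those tested, which is 52.7% of Emma's higher genes and 19.8% of Cornelia's. Both were at least 2-fold lower for 11 genes, 0.0713%. Opposite changes of this size were seen for 14 genes higher in Emma and lower in Cornelia, and for 113 lower in Emma and higher in Cornelia. Of the 272 genes, 181 had a mean under 1 CPM, 85 lay between 1 and 10 CPM and 6 were at 10 CPM or more. Of the 272, 31 entered the test only because the pregnant day 13 libraries were counted. Each gland has 1 library a day, so these are descriptions of 4 libraries with no replicate error.

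The 272 genes had a median of 0.111 CPM in Emma and 0.0944 CPM in Cornelia at day 11, and of 1.07 and 1.35 CPM at day 13. In the day 11 libraries that played no part in the choice, their median was 0.338 CPM in Kate and 0.792 CPM in Gisela. Gisela was at least 2-fold above the higher of the 2 paired day 11 levels for 58.8% of them and Kate for 30.9%. Over all genes tested this held for 4.95% in Gisela and 2.66% in Kate. The choice of the 272 for a rise favours low day 11 levels in Emma and Cornelia, so these shares are in part set by it and nothing is read from them. In the non-pregnant glands sampled on both days, 51.5% of the 272 were at least 2-fold higher at day 13 in Kiwi, 67.3% in Kate's second gland and 48.5% in Emma's second gland, where 4.97%, 5.34% and 3.04% of all genes were. All 3 of these glands shared the rise for 73 of the 272 genes. In the first gland of Kate 8.82% rose by that much, against 2.56% of all genes. These shares of all genes are not matched for abundance, and rises of this size were commoner in rare transcripts. Of the 2437 genes under 1 CPM, 341 rose at least 2-fold in Emma and 703 in Cornelia, against 516 and 1373 of all 15437. The part of abundance in the shares of the 272 was not tested.

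Across all 15437 genes the changes in the 2 glands correlated with a Pearson r of 0.25 and a Spearman rho of -0.14. Among genes of at least 10 CPM, r was -0.21 and rho was -0.34, and the 2 glands moved in the same direction for 38.3% of the genes. Of the 176 such genes at least 2-fold higher in Cornelia at day 13, 130 were lower in Emma, 6 were at least 2-fold higher there and 11 were at least 2-fold lower. Cornelia is also the gland in which the 10 most abundant genes lost share of the counts between the days, and the part of that shift in the opposite movement was not tested. Genes are not independent replicates, and these values describe 4 libraries.

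**Figure D4:**
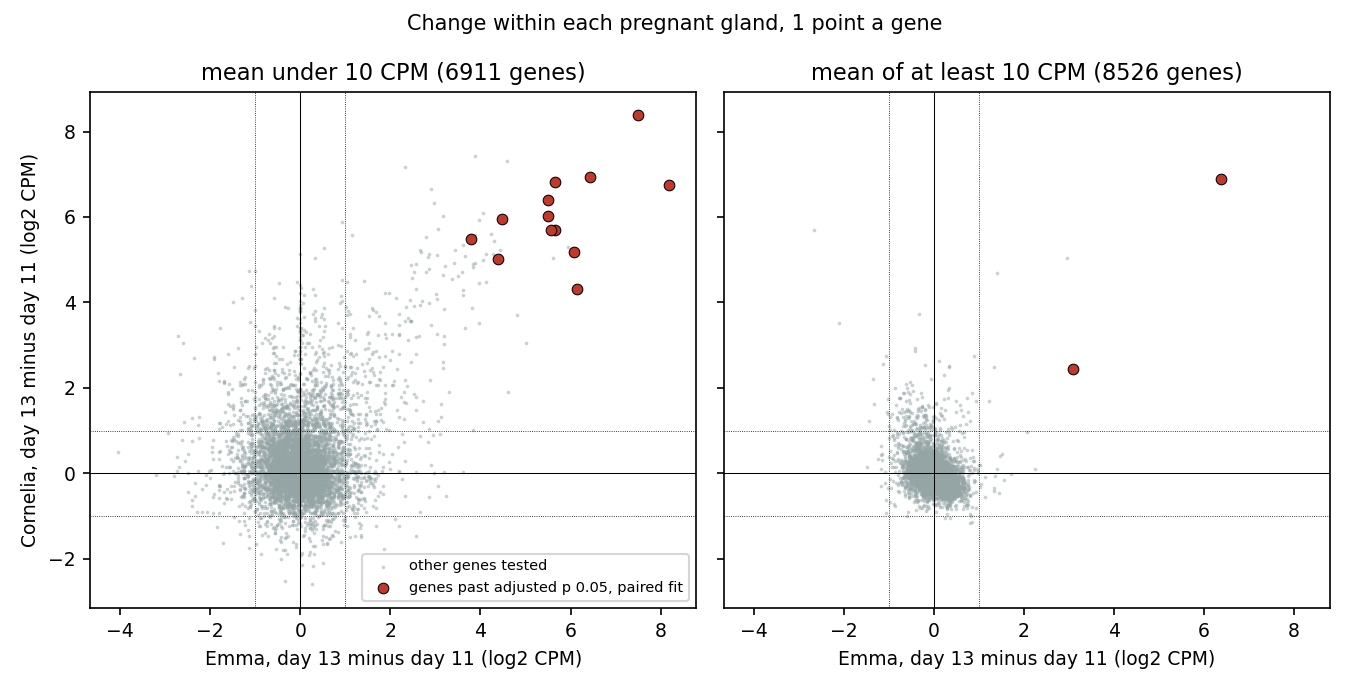
Change from day 11 to day 13 in log2 CPM in Emma (horizontal axis) and Cornelia (vertical axis), 1 point a gene, for 6911 genes with a mean under 10 CPM and 8526 genes of at least 10 CPM; dotted lines mark 2-fold and filled red points are the 15 genes called in the paired fit. Genes under 10 CPM extend to the upper right, while the abundant genes slope downward, with r of -0.21.

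Correlations with the other glands give the setting of these values. Over the 8526 genes of at least 10 CPM, the change in Emma's pregnant gland correlated with that in Emma's second gland at r of 0.33, in Kate's second gland at 0.30, in Kate's first gland at 0.34 and in Kiwi at 0.10. The change in Cornelia correlated at -0.36 with Emma's second gland, -0.24 with Kate's first gland, 0.14 with Kiwi and 0.15 with Kate's second gland. No library is shared between these changes, but Emma's 2 glands share a mare, and Cornelia and Emma's second gland were biopsied on the same dates. The r of -0.21 between the 2 pregnant glands lay within the range of these values, from -0.36 to 0.34. Over all genes tested, the r of 0.25 between them lay between -0.13, for Cornelia with Kate's first gland, and 0.40, for Emma's pregnant gland with Kate's second gland. With Kate's first gland left aside, the lowest value that involved a pregnant gland was 0.06, for Cornelia with Emma's second gland. Between non-pregnant glands, r over all genes was 0.05 for Kiwi with Kate's second gland and 0.00044 for Kiwi with Emma's second gland. For Kate's second gland with Emma's second gland it was 0.25. No test of these differences was made.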

How the data were processed

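Poly(A) libraries were made from 1000 ng of RNA with a directional kit, per the labels' protocols. The authors deposited 1 table of unnormalized read counts, with 14 libraries as columns. The submitters' processing notes name Trim Galore, STAR and the EquCab3.0 build. The sources used here do not give versions, counting tool, strand setting or annotation, so counts of near-identical or overlapping genes are uncertain.

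Genes were kept by filterByExpr, which left 99.974% of the counts, and scaled by TMM. The paired model in edgeR 4.0.16 (R 4.3.3) held corpus luteum, status and a day effect for each status over 14 libraries, with 3 residual degrees of freedom. The unpaired model held 4 group means, and its p-values do not account for glands sampled on both days. Pairing comes from mare names and biopsy dates. Deviations from group means correlated at 0.38 in Emma and 0.03 in Cornelia, where 2 day 13 libraries mirror each other. SE is the absolute log2 fold change divided by the root of F. Named genes were the 2 higher and 2 lower with the smallest paired p and at least 1 CPM over the 4 paired libraries, the rule for the case in which no symbol matched, and the planned gene lists were not read. Members, rules and lists were chosen with earlier results of these data known. Scripts were tested on simulated data. DESeq2 1.42.0 and limma 3.58.1 were alternatives.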

Additional observations from a re-analysis of the deposited data

Results flagged for a closer look

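Within each of the 3 groups of 4 libraries, single values were set against the other 3 in 24 sets, and chance would set apart about 1 in 20. One value stood apart: ENSECAG00000024267 was at 140.706 CPM in NP11 replicate 4, the non-pregnant day 11 library of Emma's second gland, against 85.5 to 94.7 CPM in the others of that group. The day comparison in pregnant glands uses that library through the shared estimate of the spread alone.

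ENSECAG00000041041 was lower at day 13 in both pregnant glands and higher in all 3 glands labelled non-pregnant on both days. The difference of the day effects, pregnant minus non-pregnant, was -1.1799 on the log2 scale, with an unadjusted p of 0.000429 and an adjusted p of 1 in edgeR. Leaving out single libraries gave differences from -1.31 to -1.02. The choice of this gene for its fall in the pregnant glands favours such a difference. Of the 15437 genes tested, 314 were lower in both pregnant and higher in all 3 non-pregnant glands, and 178 the reverse. A further 561 were higher and 423 lower in both pregnant and all 3 non-pregnant glands. Opposite directions alone therefore do not set this gene apart.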

How the results depend on the processing

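The paired count of 15 genes was 15 with RLE size factors, 11 where the mean had to reach 1 CPM and 14 in pregnant libraries alone. It was 62 without a low-count filter, 68 in DESeq2, 2 in limma with voom, 6 with library totals alone (added after the data were seen) and 0 with no replicate block, and leaving out single libraries gave 0 to 27. A gland with a lost partner leaves 1 pregnant pair, which is then assumed to vary like the others. The paired fit with no replicate block is the unpaired fit itself. The unpaired fit with the corpus luteum as replicate block is the paired fit itself. These settings swap the main results and add no further fit. The unpaired count of 0 was 15 with the corpus luteum as replicate block, 11 in DESeq2, 1 in limma with the corpus luteum as a random replicate block, and 2 with both libraries of Kate's first gland removed, and leaving out single libraries gave 0 to 1. The difference of day effects called 2 genes in DESeq2 and 0 under the other alternatives run. Genes at least 2-fold higher in both glands numbered 94, and r over all genes was 0.19, where the mean had to reach 1 CPM. Genes at least 2-fold lower in both numbered 31 and 5 with prior counts of 0.5 and 5, and 3 with the 1 CPM minimum. The cause of these shifts was not tested beyond the genes each setting removes. Depth limits genes near 0 counts, for which the prior count sets the fold.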
